A study of Rattus norvegicus with 12 samples.

Results

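Rat liver 168 hours after partial hepatectomy was compared with sham-operated rat liver, using the piRNA read counts of small RNA libraries. The tables of the 2 libraries at 168h and of the 6 libraries labelled pre_PH were taken, 8 of the 12 libraries of the series, with every listed piRNA name and a name missing from a library counted as 0 reads there. The 168h group was liver of Fischer-344 rats, an inbred strain, in the labelled regeneration phase 168 hours after partial hepatectomy. The pre_PH group was normal liver of Fischer-344 rats after a sham operation, with no time given. The other 4 libraries, 2 each from 24 and 48 hours after hepatectomy of the same strain, entered the fit for their spread between replicates and a direct comparison at the end. The labels state no age, no sex, no amount of liver removed, and not whether each library is a different animal, so p-values measure the spread between libraries, which may be technical.

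In partial hepatectomy some liver lobes are cut away. The remaining hepatocytes then divide within days until the lost mass is largely regained, so that 168h lies near the end of regrowth in this model. PIWI-interacting RNAs (piRNAs) are small RNAs that guide PIWI proteins, and they are best known for silencing transposons in the germ line. They are far less studied in organs such as the liver, and some entries of piRNA databases have sequences that also occur in other non-coding RNAs, such as tRNAs. The tables gave a name, a read count and the number of distinct read sequences per piRNA, but no target or function, so the piRNAs below are ordered by abundance and by how they differed. Sequences, genome positions and cell type markers were not analysed here. In whole liver, fewer cells of a type and less of an RNA per cell cannot be told apart.

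The 168h libraries held 126418 and 146887 piRNA reads in 31017569 and 27466978 library reads, against 122699 to 351818 piRNA reads in 23555129 to 28797822 library reads for pre_PH. At these depths a count of 0 allows up to 3 reads, or 0.0967 and 0.109 reads per 1000000 library reads (RPM) at 168h. The piRNA share of library reads was 0.408% and 0.535% at 168h, with a lowest, median and highest value of 0.478%, 0.586% and 1.25% in pre_PH. Only 168h replicate 1 lay below the pre_PH range, and the geometric mean at 168h was 0.695 of that in pre_PH (exact two-sided permutation test on log2 share, p = 0.286, adjusted p = 0.491 over 5 measures). Without the reads of 1 species described next, rno_piR_005567, piRNA reads were at 3921 and 3127 RPM at 168h and at 4516 to 12407 RPM in pre_PH, so that both 168h libraries then lay below all sham libraries. This value was computed with that species already known to stand apart and carries no test. At an equal depth of 122699 piRNA reads, 150 and 169 piRNAs were detected at 168h, within the 111 to 193 in pre_PH (exact permutation adjusted p = 0.536). The effective number of piRNAs, the exponential of the Shannon entropy of their shares, was 8.51 ± 0.983 (SD, n = 2) at 168h and 7.42 ± 1.30 (SD, n = 6) in pre_PH (exact permutation adjusted p = 0.491). With 2 libraries against 6 the smallest p that this test allows is 0.0357, and none of these measures reached it.

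The makeup of the piRNA reads at 168h depended on which of the 2 libraries was taken. In replicate 2 a single species, rno_piR_005567, held 41.5% of piRNA reads (95% Wilson interval 41.3 to 41.8%), while in replicate 1 it held 3.80% (3.69 to 3.90%), against a lowest, median and highest share of 0.691%, 2.66% and 5.54% in pre_PH. Replicate 1 was thus inside the pre_PH range and replicate 2 far above it. The species that is most abundant in sham-operated liver, rno_piR_000685, showed the converse, with 43.8% in replicate 1 and 17.7% in replicate 2 at 168h, against 39.3%, 42.3% and 54.8% (lowest, median, highest) in pre_PH. When rno_piR_005567 was removed and shares were taken over the other piRNAs, rno_piR_000685 still held 45.5% and 30.3% at 168h, with 41.1% to 55.2% in pre_PH, so replicate 2 remained below that range. In RPM of library reads, rno_piR_000685 was below all sham libraries in both replicates, at 1784 and 947 RPM at 168h against 1877 to 5736 RPM in pre_PH. Neither the share of the 10 most abundant piRNAs together (85.9% and 90.4% at 168h, 88.2% to 94.3% in pre_PH, exact permutation p = 0.107, adjusted p = 0.491) nor any of those other than rno_piR_005567 passed a test.

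**Figure D1:**
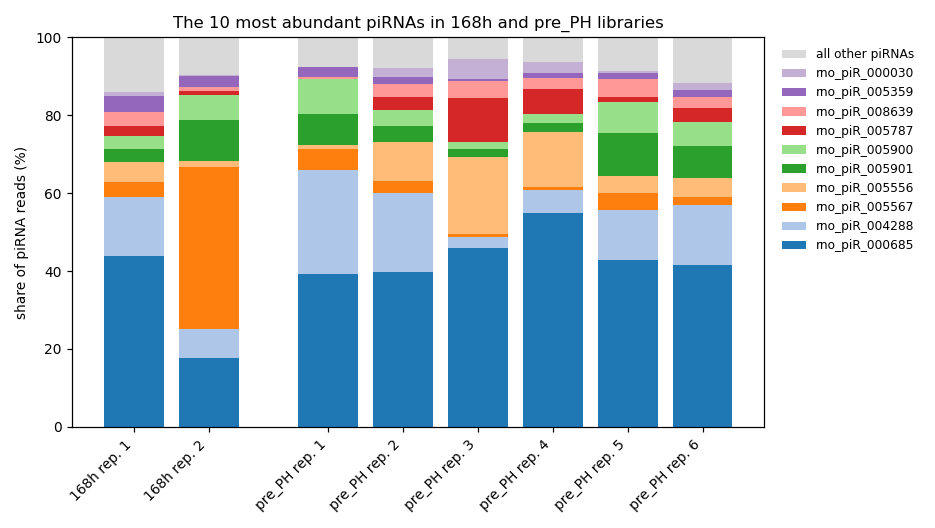
Stacked bars of the share of piRNA reads (percent, vertical axis) held by the 10 most abundant piRNAs in each 168h and pre_PH library, with all other piRNAs in grey. The orange segment, rno_piR_005567, is 41.5% in 168h replicate 2 and at most 5.54% in the other 7 libraries.

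The other abundant species fell into groups by how the 8 libraries ranked. The shares of rno_piR_005556 were 5.23% and 1.64% at 168h and ran from 0.849% to 19.6% in pre_PH, those of rno_piR_005787 were 2.63% and 1.13% against 0.115% to 11.1%, and those of rno_piR_000030 were 1.04% and 0.337% against 0.151% to 5.07%. These 3 were each lowest in pre_PH replicate 1 and highest in pre_PH replicate 3, and both 168h libraries lay inside that wide range. Their log2 fold changes of -1.83, -1.73 and -2.07, each with a wide error, did not pass (edgeR adjusted p = 0.394, 0.430 and 0.375). Shares of rno_piR_008639 were likewise lowest in pre_PH replicate 1, at 0.476%, and highest in pre_PH replicate 3, at 4.50%. Those of rno_piR_004288 ran the other way, at 26.6% and 2.85% in these libraries, its highest and lowest. For both species the 168h shares were inside the pre_PH range (log2 fold changes -0.72 ± 0.87 and -0.17 ± 0.73, edgeR adjusted p = 0.681 and 0.892). The pair rno_piR_005901 and rno_piR_005900 had 3.37% and 10.6%, and 3.28% and 6.25%, of reads in replicates 1 and 2 at 168h, against medians of 6.08% and 5.07% in pre_PH. Their log2 fold changes of 0.05 ± 0.69 and -0.24 ± 0.65 (SE) were smaller than their errors (edgeR adjusted p = 0.941 and 0.876). The first of these, for rno_piR_005901, changed sign with the authors' library total as scaling.

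One abundant species, rno_piR_005359, was above all sham libraries by share. It held 4.14% and 2.77% of piRNA reads at 168h, with 0.441%, 1.72% and 2.42% (lowest, median, highest) in pre_PH, and 169 and 148 RPM of library reads at 168h against 55.2 to 116 RPM in pre_PH. Its log2 fold change in normalised counts, 1.12 ± 0.62 (SE), did not pass (edgeR adjusted p = 0.348), and on that scale 168h replicate 2, at 21315 normalised CPM, lay below the highest pre_PH library at 21406.

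For each of 80 piRNAs with enough reads, counts were tested with edgeR after scaling each library by TMM (trimmed mean of M values), with calls made where the Benjamini-Hochberg adjusted p was under 0.05. Normalised CPM are counts per 1000000 of the TMM-scaled piRNA total, and so are relative to the other piRNAs. At 168h 5 of the 80 piRNAs were called higher than in pre_PH, 6.25% of those tested, and 0 lower. At an unadjusted p under 0.05 there were 10 higher and 3 lower, while DESeq2 called 4 higher and 2 lower and limma-voom 1 higher and 0 lower. The 5 ranged from one of the most abundant species to one of the rarest tested, and their normalised CPM in both 168h libraries were above those of all 6 pre_PH libraries.

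The most abundant of the 5 was rno_piR_005567, with 45107 and 319123 normalised CPM at 168h against 9306, 27610 and 39428 (lowest, median, highest) in pre_PH. On the log2 scale the difference was 2.75 ± 0.69 (SE), with an edgeR adjusted p of 0.0277. Replicate 1 exceeded the highest sham library by little, and in RPM of library reads it did not exceed it (155 and 2221 RPM at 168h, 59.3 to 265 RPM in pre_PH). Without 168h replicate 2 the log2 fold change was 0.17 (edgeR adjusted p = 0.931), and -0.24 when in addition only the 8 libraries were fitted (edgeR adjusted p = 0.900, over all alternatives 1.2e-07 to 0.931). The call thus rested on 168h replicate 2.

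Much less abundant but similar in both libraries was rno_piR_002302, with 77 and 81 reads at 168h against 15 to 32 in pre_PH. In RPM of library reads these were 2.48 and 2.95 at 168h against 0.534, 1.00 and 1.21 (lowest, median, highest) in pre_PH, and in normalised CPM 724 and 424 against 88.9, 159 and 191. The groups did not overlap on either scale, and the difference passed (log2 fold change 1.91 ± 0.50, SE, edgeR adjusted p = 0.0277).

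The rarest of the 5 was rno_piR_001338, with 12 and 16 reads at 168h, while the 6 pre_PH libraries had 0, 0, 1, 6, 1 and 2 reads. Its normalised CPM were 113 and 83.7 at 168h, with 0, 5.52 and 38.1 (lowest, median, highest) in pre_PH. Both 168h libraries were above pre_PH replicate 4, which stood apart from the other 5 sham libraries, all of them under the 3 reads that a count of 0 allows. The fitted log2 fold change, 3.17 ± 0.86 (SE), passed (edgeR adjusted p = 0.0277).

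Counts of rno_piR_033824 were 116 and 70 reads at 168h and 22 to 42 in pre_PH. These were 3.74 and 2.55 RPM of library reads at 168h against 0.783, 1.22 and 1.46 RPM (lowest, median, highest) in pre_PH, and 1090 and 366 normalised CPM against 128, 209 and 244. The groups did not overlap on either scale, although the 168h libraries differed from each other more in normalised CPM than in RPM. The difference passed, at a log2 fold change of 1.91 ± 0.53 (edgeR adjusted p = 0.0277).

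The fifth, rno_piR_019160, had 1129 and 1108 reads at 168h and 157 to 529 in pre_PH. Its level was 36.4 and 40.3 RPM of library reads at 168h against 5.59, 17.0 and 18.9 RPM (lowest, median, highest) in pre_PH, and 10612 and 5795 normalised CPM against 930, 2669 and 3464. Both 168h libraries were well clear of the sham libraries (edgeR adjusted p = 0.0340, log2 fold change 1.81 ± 0.52).

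**Figure D2:**
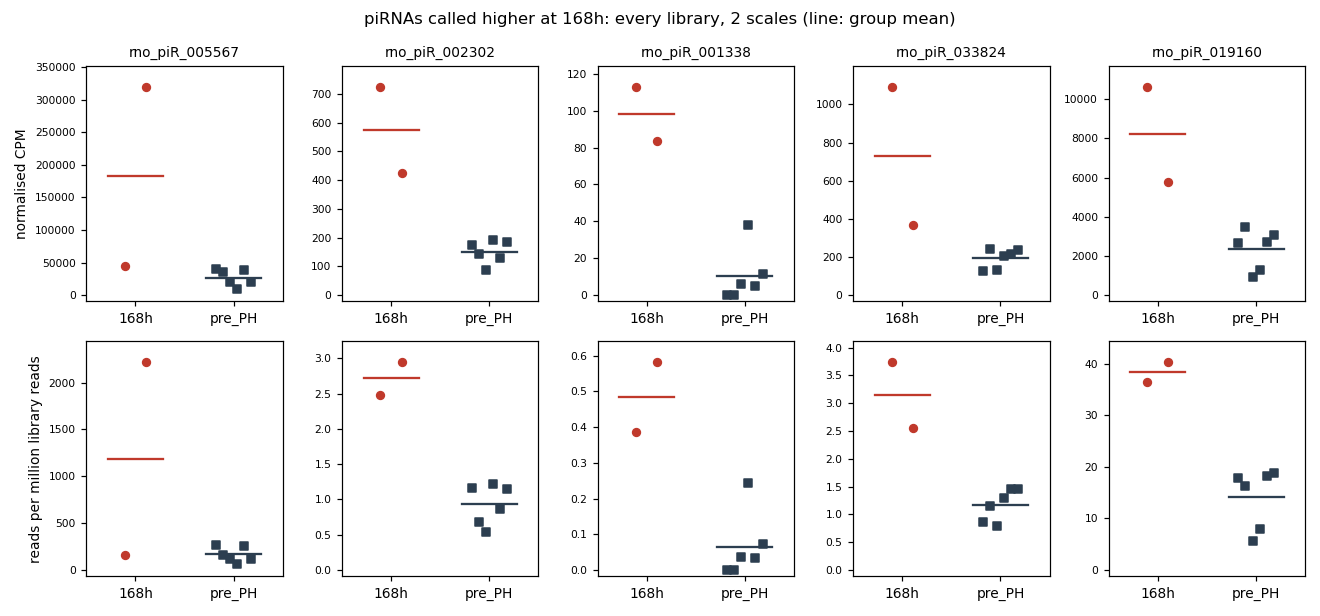
The 5 piRNAs called higher at 168h, with each point 1 library and the line the group mean, as normalised CPM (upper row) and as RPM of library reads (lower row). For rno_piR_005567 the points at 168h are far apart on both scales, whereas the 168h values of rno_piR_002302 and rno_piR_019160 lie close together in the lower row, at 2.48 and 2.95 and at 36.4 and 40.3.

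None of the 5 calls held in every setting tried. Among 13 other settings of scaling, filter, tool or samples, the number that kept the call was 9 for rno_piR_001338, 8 for rno_piR_005567, 6 each for rno_piR_002302 and rno_piR_033824, and 4 for rno_piR_019160. The strictest filter did not test rno_piR_001338. A fit of only the 8 libraries of 168h and pre_PH called all 5, with edgeR adjusted p from 0.00900 to 0.0482. It tested 61 piRNAs against 80, so its adjustment was over fewer. In that fit rno_piR_001338 reached the count filter through the 168h libraries, where it is high, so its call there is no separate support. Leaving out 1 of the 12 libraries at a time, rno_piR_005567 was lost without 168h replicate 2, pre_PH replicate 4 or 6, or any 24h or 48h library (log2 fold changes 0.17 to 3.10), and rno_piR_001338 without either 168h library, pre_PH replicate 5 or 6, or any 24h or 48h library (2.57 to 3.16). Those of rno_piR_002302 (1.09 to 1.72) and rno_piR_033824 (0.91 to 2.01) were lost without either 168h library, pre_PH replicate 4, either 24h library or 48h replicate 1, and rno_piR_019160 (0.79 to 1.85) in those cases and without pre_PH replicate 5 or 48h replicate 2. Apart from the value of -0.24 given above for rno_piR_005567, the log2 fold changes of these 5 piRNAs were above 0 in all alternatives that tested them. The median log2 fold change of all 80 piRNAs was 0.33 with TMM and ran from -0.05 to 0.48 over 6 scalings. Relative to that median, the 5 lay between 1.28 and 2.98 above it under all 6 scalings. Subtracting the median of each scaling takes out most of what scaling changes, and the 5 were picked from these same data. The agreement is therefore no separate support, and the authors' library total kept 0 of the 5 calls.

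Groups that did not overlap were found in both directions. In normalised CPM both 168h libraries were above all 6 pre_PH libraries for 12 of 80 piRNAs (15%) and below all of them for 3 (3.75%). In RPM of library reads these numbers were 10 (12.5%) and 8 (10%), and 9 of the higher and all 3 of the lower ones were the same piRNAs on both scales.

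Besides the called species, the higher set held rno_piR_015359, an abundant species. Its normalised CPM were 18206 and 13824 at 168h against 4494, 5523 and 6909 (lowest, median, highest) in pre_PH, and its RPM of library reads 62.4 and 96.2 against a median of 33.96 and a highest value of 42.7. The log2 fold change of 1.52 ± 0.53 (SE) did not pass with all 12 libraries (edgeR adjusted p = 0.1003) and passed with the 8 libraries only (1.48, edgeR adjusted p = 0.0482, over all alternatives 0.0482 to 0.647). A further 2 abundant species, outside the rule for naming and given here to complete the 12, were rno_piR_000324, with 8281 and 5267 normalised CPM at 168h against 2427 to 4499 in pre_PH, and rno_piR_032799, with 11533 and 8238 against 3644 to 6892. Both overlapped with pre_PH in RPM of library reads, and their edgeR adjusted p of 0.3003 and 0.325 missed the threshold. The other 4 were rare, with at most 27 reads in a 168h or pre_PH library. For rno_piR_007198 there were 13 and 18 reads at 168h and 1 to 9 in pre_PH (log2 fold change 2.09 ± 0.78, edgeR adjusted p = 0.132). For rno_piR_013244 there were 10 and 10 reads against 0 to 8, for rno_piR_035901 19 and 27 against 4 to 15, and for rno_piR_020049 17 and 16 against 1 to 15, with edgeR adjusted p of 0.323, 0.325 and 0.372. None of these passed the test.

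The lower set consisted of rno_piR_000219, rno_piR_005633 and rno_piR_001415. The reads of rno_piR_000219 were 17 and 63 at 168h against 71 to 206 in pre_PH, or 160 and 330 normalised CPM against 451, 636 and 1254 (lowest, median, highest), and the log2 fold change of -1.64 ± 0.68 did not pass (edgeR adjusted p = 0.192). Those of rno_piR_005633 were 60 and 20 at 168h against 119 to 173 in pre_PH, or 564 and 105 normalised CPM against 645, 849 and 1506. Its log2 fold change was -1.49 ± 0.67 (SE) and did not pass (edgeR adjusted p = 0.228), but it was called lower in 5 of 27 alternatives, among them DESeq2 (-2.11, adjusted p = 0.00110) and the fit of the 8 libraries (-2.03, edgeR adjusted p = 0.0482), over all alternatives 0.00110 to 0.647. For rno_piR_001415 the values were 526 and 471 normalised CPM at 168h against 594, 740 and 1173, and the log2 fold change of -0.67 ± 0.56 (SE) was small beside its error (edgeR adjusted p = 0.503).

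By abundance, only the most abundant piRNAs were more often below sham than above it, which is given as a description. Among 12 tested piRNAs that held at least 1% of piRNA reads on average, 4 had a log2 fold change above 0 and 8 below, with a median of -0.35 and 1 call. Among the 14 with 0.1 to 1% it was 9 above and 5 below (median 0.56, 1 call), among the 23 with 0.01 to 0.1% 15 above and 8 below (median 0.51, 2 calls), and among the 31 rarer ones 20 above and 11 below (median 0.29, 1 call). Over all 80 it was 48 above and 32 below, with a median of 0.33. The split at 0 moves with the scaling, as the median of all 80 ran from -0.05 to 0.48 over 6 scalings. Part of the rarer ones passed the count filter through libraries of other groups, so these counts carry no test.

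The raw counts of the 2 libraries at 168h differed with a chi-square of 1113 per degree of freedom, and the 15 pre_PH pairs ran from 120.1 to 2559. This value grows with read number, and each pre_PH pair above 1113 held pre_PH replicate 3 or 4, with 351818 and 211937 piRNA reads. The pair of pre_PH replicates 1 and 2, with 127504 and 122699 piRNA reads, was at 440.7. The range is therefore no comparison of agreement at equal depth. Of 27 tested piRNAs with a mean of at least 1000 normalised CPM at 168h, 7 were within 2-fold of each other in the 2 libraries, 18 were over 2-fold higher in replicate 1 and 2 were over 2-fold higher in replicate 2. Between pairs of pre_PH libraries 13 to 23 of the same 27 were within 2-fold in normalised CPM, with a median of 18 over 15 pairs. These 27 were chosen by their level at 168h, and sham pairs were not compared on other scales. The imbalance depended on the scale. In RPM of library reads 16 of the 27 were within 2-fold at 168h, 8 were over 2-fold higher in replicate 1 and 3 in replicate 2, and by share of piRNA reads these numbers were 14, 11 and 2. The median ratio of replicate 2 to replicate 1 was 0.409 in normalised CPM and 0.831 in RPM. The largest ratios in normalised CPM among the 27 were those of rno_piR_005567, 7.07 times higher in replicate 2, and of rno_piR_008639, rno_piR_005854, rno_piR_005556 and rno_piR_008174, which in replicate 2 were at 0.195, 0.196, 0.203 and 0.204 of replicate 1. These last 4 did not pass the test against pre_PH (edgeR adjusted p of 0.394 for rno_piR_005556, the lowest of them). Of all 80 tested piRNAs, replicate 1 was above the pre_PH range in 38 and below it in 3, and replicate 2 above it in 14 and below it in 14. A single pre_PH library was above the range of the other 5 in 5 to 23 piRNAs and below it in 3 to 21.

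**Figure D3:**
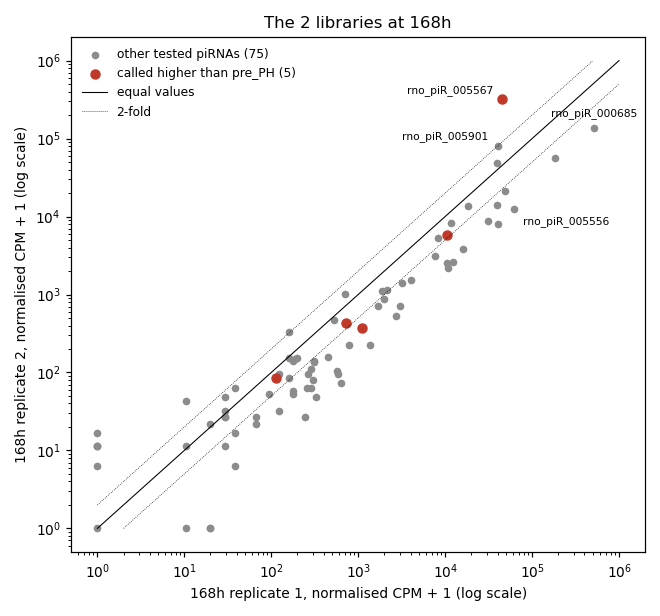
Each point is 1 of the 80 tested piRNAs, with normalised CPM + 1 in 168h replicate 1 on the horizontal log axis and in 168h replicate 2 on the vertical log axis. Of the 27 with a mean of at least 1000, 18 are over 2-fold lower in replicate 2, and rno_piR_005567 lies above it at 45107 and 319123.

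Read counts and distinct read sequences under a name are separate columns. For rno_piR_005567 there were 35 and 33 distinct sequences at 168h against 22 to 35 in pre_PH, so that in 168h replicate 2 each had on average 1849 reads, against 137 in replicate 1 and 66.6 to 294 in pre_PH. For rno_piR_019160 there were 3 and 4 distinct sequences at 168h and 3 to 5 in pre_PH, with 376 and 277 reads each against 31.4 to 176. For rno_piR_015359 there were 13 and 13 at 168h and 10 to 15 in pre_PH, with 149 and 203 reads each against 61.3 to 84.6. The name rno_piR_005901 had 1 distinct sequence in all 8 libraries. Over all piRNAs there were 84.0 and 107 reads per distinct sequence at 168h and 90.2, 105 and 211 (lowest, median, highest) in pre_PH (exact permutation adjusted p = 0.491).

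Few names separated the groups by presence alone. Of 444 names listed in the 8 libraries, 67 were in all 8, 65 in a 168h library and no pre_PH library, and 211 in a pre_PH library and neither 168h library. The 65 and 211 come from 2 and 6 libraries, so they are not a like comparison. Of them, 37 and 109 had 1 read in all. The highest count among the 65 was 3 reads, and their summed share of piRNA reads at 168h was 0.0364% and 0.0374%. Both 168h libraries shared 2 of them, rno_piR_007888 with 2 and 1 reads and rno_piR_016118 with 1 and 2 reads, which is no more than a count of 0 in the sham libraries allows. No name was in all 6 pre_PH libraries and in neither 168h library, and none of the 211 had more than 8 reads in a single library.

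Set directly against the earlier times of regeneration in the same fit, some species differed at 168h. Against 48h, 13 of 80 piRNAs were called higher (16.2%) and 17 lower (21.2%). Part of the 17 reached the count filter only through the 48h libraries, where they are high. One such was rno_piR_030575, with 0 and 0 reads at 168h and 30 and 45 at 48h. The number called lower is therefore partly fixed by the filter and is no separate support. Among the 13 was rno_piR_002302, with 724 and 424 normalised CPM at 168h against 54.9 and 41.6 at 48h (log2 fold change 3.56 ± 0.73, edgeR adjusted p = 0.00171). Also higher were rno_piR_019160, at 10612 and 5795 against 1659 and 794 (2.74 ± 0.74, edgeR adjusted p = 0.00783), and rno_piR_015359, at 18206 and 13824 against 923 and 3904 (2.73 ± 0.74, edgeR adjusted p = 0.00783). Against 24h, rno_piR_015359 was the only call (1.25% of 80), with 2127 and 991 normalised CPM at 24h (3.36 ± 0.77, edgeR adjusted p = 0.0169). The levels of rno_piR_001338 at 168h, 113 and 83.7 normalised CPM, and at 48h, 115 and 66.6, did not differ beyond their spread (log2 fold change 0.11 ± 0.98, edgeR adjusted p = 0.963). Those of rno_piR_005567 were 45107 and 319123 at 168h, 70930 and 119502 at 48h and 33888 and 48556 at 24h, and neither difference passed (edgeR adjusted p = 0.471 against 48h and 0.290 against 24h). For rno_piR_033824 the log2 fold changes were 1.68 ± 0.71 against 48h and 2.07 ± 0.73 against 24h, and neither passed (edgeR adjusted p = 0.0634 and 0.122).

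**Figure D4:**
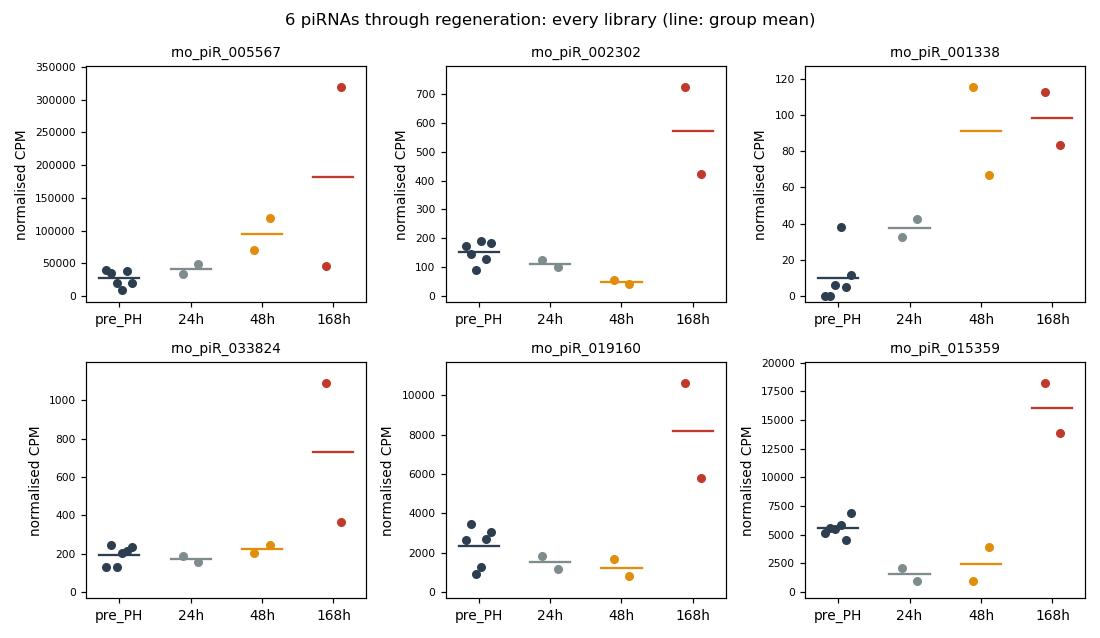
Normalised CPM of 6 piRNAs in every library of pre_PH, 24h, 48h and 168h, with the line at the group mean. The libraries at 168h are the highest for rno_piR_002302, rno_piR_033824, rno_piR_019160 and rno_piR_015359, while for rno_piR_001338 they overlap with those at 48h and for rno_piR_005567 only replicate 2 stands above 48h.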

How the data were processed

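The authors' deposited tables list, for each of 12 rat liver small RNA libraries, piRNA names with a read count and a count of distinct read sequences, both whole numbers without normalisation per the file headers. A further 2 deposited columns give each piRNA as a percent of all reads and of the piRNA-mapped ones. The submitters' processing notes list cutadapt, CASAVA 1.8, the build rn4 and DESeq 1.14.0 without saying what each did. How reads were aligned, and how one matching more than 1 piRNA was counted, is not given in the sources used here, so names with near-identical sequences can share or split reads. Per the labels' protocols, libraries were made with the Illumina TruSeq small RNA kit from TRIzol-extracted RNA.

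Library totals were obtained as read count over percent of all reads, constant within each library. Counts were tested with edgeR 4.0.16 (R 4.3.3, robust quasi-likelihood F-test, TMM, filterByExpr) in 1 fit of all 12 libraries and 4 groups. TMM factors ran from 0.480 to 1.51. The SE is the log2 fold change over the square root of F. Per-library measures were compared by exact permutation over 28 arrangements of the labels, and detection by rarefaction. Alternatives covered scaling, filters, DESeq2 1.42.0, limma 3.58.1, samples, the replicate number and each library left out. Intervals and floors are for counting error alone, as PCR copies are not independent molecules.

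The piRNAs named were those called, the 10 most abundant, up to 10 in each direction whose groups did not overlap, up to 5 listed in both 168h and no pre_PH libraries or the reverse, and, among tested piRNAs with a mean of at least 1000 normalised CPM at 168h, the 5 with the largest ratio between the 168h libraries. Members, lists and tests were chosen with earlier results of these data known. No cell type marker list could be applied, since the tables hold only piRNA names.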

Additional observations from a re-analysis of the deposited data

Results flagged for a closer look

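Among 29 sets of 6 pre_PH values examined, 3 had a library far from the other 5. Chance gives about 1 in 20 only for independent sets of normally distributed values. The 3 were found in normalised CPM on a linear scale, and rno_piR_005787 and rno_piR_000030 share pre_PH replicate 3. No excess over chance is therefore read from their number. For rno_piR_001338, pre_PH replicate 4 was at 38.1 normalised CPM with the next highest sham library at 11.5, and both 168h libraries, at 113 and 83.7, lay above it. For rno_piR_005787, pre_PH replicate 3 was at 232048 normalised CPM with the next at 83356, and for rno_piR_000030 at 105618 with the next at 35761.

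The level at 168h differed from that at an earlier time of regeneration for 5 named piRNAs by the direct comparison in the same edgeR fit. Against 48h the log2 fold change was 3.56 for rno_piR_002302, 2.74 for rno_piR_019160, 2.73 for rno_piR_015359, 2.78 for rno_piR_035901 (edgeR adjusted p = 0.0279) and -2.14 for rno_piR_005633 (edgeR adjusted p = 0.0329). Against 24h it was 3.36 for rno_piR_015359.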

How the results depend on the processing

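With 2 libraries at 168h, the number of calls moved with most choices. Against 5 piRNAs higher and 0 lower, the numbers were 4 and 1 with DESeq2 size factors, 2 and 0 with the piRNA read total and 0 and 0 with the authors' library total. They were 3 and 0 with no count filter (701 piRNAs tested against 80), 0 and 0 with at least 10 reads in 2 libraries (87 tested) and 0 and 0 with the strict count filter (59 tested). DESeq2 gave 4 and 2, limma-voom 1 and 0, and only the 8 libraries 6 and 2 (61 tested). The fit with a replicate block called 0 and 0. In it pre_PH replicates 3 to 6 each formed a block of their own. The difference between 168h and pre_PH then rested on pre_PH replicates 1 and 2 alone. The sham numbers only follow accession order. Correlations between the deviations of same-numbered libraries were -0.27 and 0.01 for 168h with pre_PH, and ran from -0.14 for 168h with 48h to 0.30 for pre_PH with 48h over all pairs of groups other than 168h with pre_PH, so not every pair was above 0.1 and the numbers were not taken to pair the libraries. Leaving out 1 library gave 0 to 6 higher and 0 to 2 lower. The cause of these shifts was not tested.

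The number of piRNAs with both 168h libraries below all sham libraries, 3, was 1 with the piRNA read total, 8 with the authors' library total and 7 with DESeq2 size factors, and 3 to 14 with 1 library left out. The number above, 12, ran from 12 to 38 with 1 library left out, with 38 of them without 168h replicate 2, and was 21 without pre_PH replicate 5. On the same normalised values, leaving out a library can only keep or raise such a count. The lower ends of 3 and 12 were thus fixed in advance. The share difference of the most abundant piRNAs was positive for the 3 most abundant (3.95 percentage points), and the log2 difference in reads per distinct sequence was 0.23 without the 10 most abundant, against negative values as reported. Leaving out 1 library changed the sign of none of the 5 per-library measures.

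Some log2 fold changes changed sign, those of rno_piR_005901 and rno_piR_005854 near 0 and others farther from it. That of rno_piR_005901 was -0.055 with the authors' library total, -0.21 with at least 10 reads in 2 libraries and -0.15 with the strict count filter, and with 1 library left out it ran from -1.48 to 0.58 over both sets of fits, or from -1.06 to 0.58 with the others of the 12 kept. That of rno_piR_005854 was -0.0085 with DESeq2 size factors and with DESeq2, -0.035 with the authors' library total, -0.34 with at least 10 reads in 2 libraries, and with 1 library left out it ran from -1.08 to 0.95 over both, or from -1.01 to 0.95 with the others of the 12 kept. In normalised CPM, pre_PH replicate 1 was the lowest sham library for rno_piR_005787, rno_piR_008639, rno_piR_000030 and rno_piR_008174. With the replicate block, the sham side rested on pre_PH replicates 1 and 2. There the log2 fold change was 1.07 for rno_piR_005787, 0.64 for rno_piR_008639, 0.16 for rno_piR_000030 and 2.03 for rno_piR_008174. That of rno_piR_005900 was 0.16 with no filter, that of rno_piR_004288 ran from -1.35 to 0.032 with 1 library left out and was above 0 without pre_PH replicate 2 only, and that of rno_piR_005567 -0.24 with only the 8 libraries less 168h replicate 2, a fit added after the data were seen. In a fit of the 4 libraries of 168h and 48h, also added, 6 piRNAs were called higher and 15 lower without a block, 0 and 1 with the replicate block, and 6 and 6 with crossed numbers. Here too piRNAs could reach the count filter through the group where they are high.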
